A study of Homo sapiens with 24 samples.

Results

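The 32 genes described here make cholesterol, sense it, take it up, move it between membranes, export it or store it. They were chosen by name, as the genes of the mevalonate and sterol pathway, of lipoprotein receptor turnover and of sterol sensing and efflux. They are 32 of the 26475 gene symbols counted. The choice was made with earlier results of these data known, so member shares set beside those of all genes are descriptions and not tests. HepG2, an established line from a human hepatocellular carcinoma, was sequenced as total RNA in 24 libraries, 3 in each of 8 groups. DMSO, the solvent, was the control. ABBV-075 (mivebresib) at 50 nM is an inhibitor of both bromodomains of the BET proteins, a family of chromatin readers that bind acetylated histones, and was given for 12 h. ABBV-744, which binds the second of these bromodomains selectively, was given at 50 nM and at 500 nM. The other 4 groups received interferon gamma (IFNγ, an inflammatory cytokine) alone or with ABBV-075 at 50 nM, ABBV-744 at 50 nM or ABBV-744 at 500 nM. All groups are the same line without genetic change. The dose of IFNγ and the treatment times of the ABBV-744 and IFNγ groups are not given in the sources used here, and the methods do not state clearly how long the DMSO cells were kept. The study's methods describe DMSO and ABBV-075 samples as independent and from triplicate treatments. They do not say whether the DMSO libraries used here are those samples. No source used here calls the libraries of the other 6 groups independent, so p-values there measure only the spread between libraries.

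Cholesterol is built from acetyl-CoA through mevalonate, farnesyl diphosphate, squalene and lanosterol, and hepatocytes are a main site of this synthesis. The transcription factor SREBP-2, the product of SREBF2, is held in the endoplasmic reticulum with its escort SCAP by the INSIG proteins while sterols are plentiful, and when they are scarce it is released to turn on the enzymes and its own gene. Excess sterol is instead esterified by the SOAT enzymes or exported by ABCA1 and ABCG1, which liver X receptors turn on together with MYLIP, a ubiquitin ligase that sends lipoprotein receptors to degradation.

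The files held 2978982 to 4304103 counts on genes per library, which is 11.95% to 16.8% of all reads, while 56% to 69.4% of the reads aligned to several places. This last share was 66.2% to 69.4% with ABBV-744 at 50 nM and 64% to 68.1% at 500 nM, above the 56% to 61% of DMSO without overlap. Levels are given as CPM, counts scaled to a common library size, after one TMM normalization of all 24 libraries, so a level of 1 CPM rests on 3 to 4 counts. All 10 hepatocyte markers were detected, with summed levels of 13654 to 17420 CPM, and the lowest sums belonged to the ABBV-075 groups and the IFNγ with inhibitor groups. Of 7 leukocyte markers 4 passed 3 counts in some library, nearly all of it LYZ (1705 CPM in DMSO), and PTPRC, which defines leukocytes, was at 0 in all 24 libraries. The leukocyte sum, at 1105 to 1354 CPM, was lowest in the ABBV-075 groups. Of 7 fibroblast markers only PDGFRB passed 3 counts, and summed endothelial markers stayed at or below 2.15 CPM. Of 5 cholangiocyte markers 3 passed 3 counts, with sums of 264 to 483 CPM. What part these markers have in the results was not tested. The 9 genes listed as a check of IFNγ summed to 123 to 194 CPM in the groups without it and to 1631 to 2795 CPM in the groups with it. HEXIM1, a gene that BET inhibitors are known to raise, was at 50.6 to 56.8 CPM in DMSO and at 137 to 152 CPM with ABBV-075. With ABBV-744 it was at 60.3 to 67.99 CPM at 50 nM and at 84.3 to 93.9 CPM at 500 nM. With IFNγ alone it was at 44.8 to 49.3 CPM. The libraries with IFNγ and ABBV-744 at 50 nM, at 38.7 to 55.5 CPM, overlapped this range. Those with ABBV-744 at 500 nM (69.4 to 73.2 CPM) or ABBV-075 (128.6 to 140.1 CPM) added to IFNγ lay above it. Of the other genes listed for this check, HEXIM2 fell from a mean of 11.05 CPM in DMSO to 5.6 CPM with ABBV-075. SERTAD1 rose from a mean of 7.35 to 15.7 CPM. ABBV-744 at 50 and 500 nM gave means of 14.9 and 10.9 CPM for HEXIM2 and 10.8 and 13.1 CPM for SERTAD1. IFNγ alone had HEXIM2 at 11.3 CPM and SERTAD1 at 8.17 CPM. After addition of ABBV-744 at 50 nM to IFNγ they were at 7.82 and 7.85 CPM, and at 500 nM at 9.12 and 11.9 CPM. ABBV-075 added to IFNγ gave 7.74 and 21.1 CPM. Summed, the 3 genes were at 64.9 to 68.2 CPM with IFNγ and at 52.6 to 72.3 CPM with ABBV-744 at 50 nM added. The fold change of a gene also moved with its GC content in every comparison, and in opposite directions in different groups. For that reason the main results below are given beside their values after a correction that removes the GC trend of each library, and the part of GC content in the results was not tested further.

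Of the 32 genes 2 could not be measured. INSIG1, one of the sterol sensors, and ABCG1, one of the exporters, never exceeded 1 count per library, and no change in them can be given. Whether the cells or the counting, whose annotation is not given, left them so low was not tested. The other 30 passed the filter on low counts in every comparison. Per kilobase of exon, the level in DMSO ran from 1.46 ± 0.37 for MYLIP to 73.3 ± 7.2 for CYP51A1, the lanosterol demethylase. The length used joins the exons of all annotated transcripts of a gene, 9018 bases for MVK and 4717 for MVD. It can exceed that of any single transcript, which lowers the value of such a gene. FDFT1 (squalene synthase) at 64.8 ± 3.4 and MSMO1 (a methylsterol oxidase) at 61.1 ± 3.2 CPM per kilobase came next, and these neighbours overlapped in their SDs (n = 3). At the lower end, MVD stood at 3.7 ± 0.84 and MVK at 3.81 ± 0.24 CPM per kilobase, within each other's spread. The enzymes of the squalene and sterol steps covered a wide range, from CYP51A1 down to HSD17B7 at 6.14 ± 0.39 CPM per kilobase.

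ABBV-075 moved these genes in both directions. MYLIP, the receptor-degrading ligase, rose 2.93-fold and TM7SF2, a sterol reductase, rose 2.02-fold. SOAT2, the sterol-esterifying enzyme typical of hepatocytes and intestine, fell to 0.35 of its DMSO level, and the exporter ABCA1 fell to 0.48 of it. Within synthesis the neighbouring steps parted: IDI1, SC5D, TM7SF2 and MVD were upregulated while ACAT2, FDPS, CYP51A1, NSDHL, HSD17B7, EBP and DHCR7 were downregulated, together with SREBF2. The calls of MVD, NSDHL, HSD17B7, EBP and DHCR7 held in at most 3 of the 6 fits that left out 1 library. In all, 6 of the 30 tested members were higher and 10 were lower at an adjusted p of at most 0.05 (quasi-likelihood test of edgeR, Benjamini-Hochberg adjusted over all genes, used throughout). Over all 11244 genes tested, 19.8% were higher and 19.6% lower, so the members' share of lower genes was above the background share and their share of higher genes was close to it. The median log2 fold change of the 30 was -0.04, beside 0.03 over all genes. MYLIP and SOAT2 alone also passed the study's own fold threshold of 1.5 on the log2 scale, which 4.28% of all genes passed. In fits that left out 1 library, MYLIP ran from 1.413 to 1.765 and SOAT2 from -1.564 to -1.405, so both also fell short of it.

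**Figure D1:**
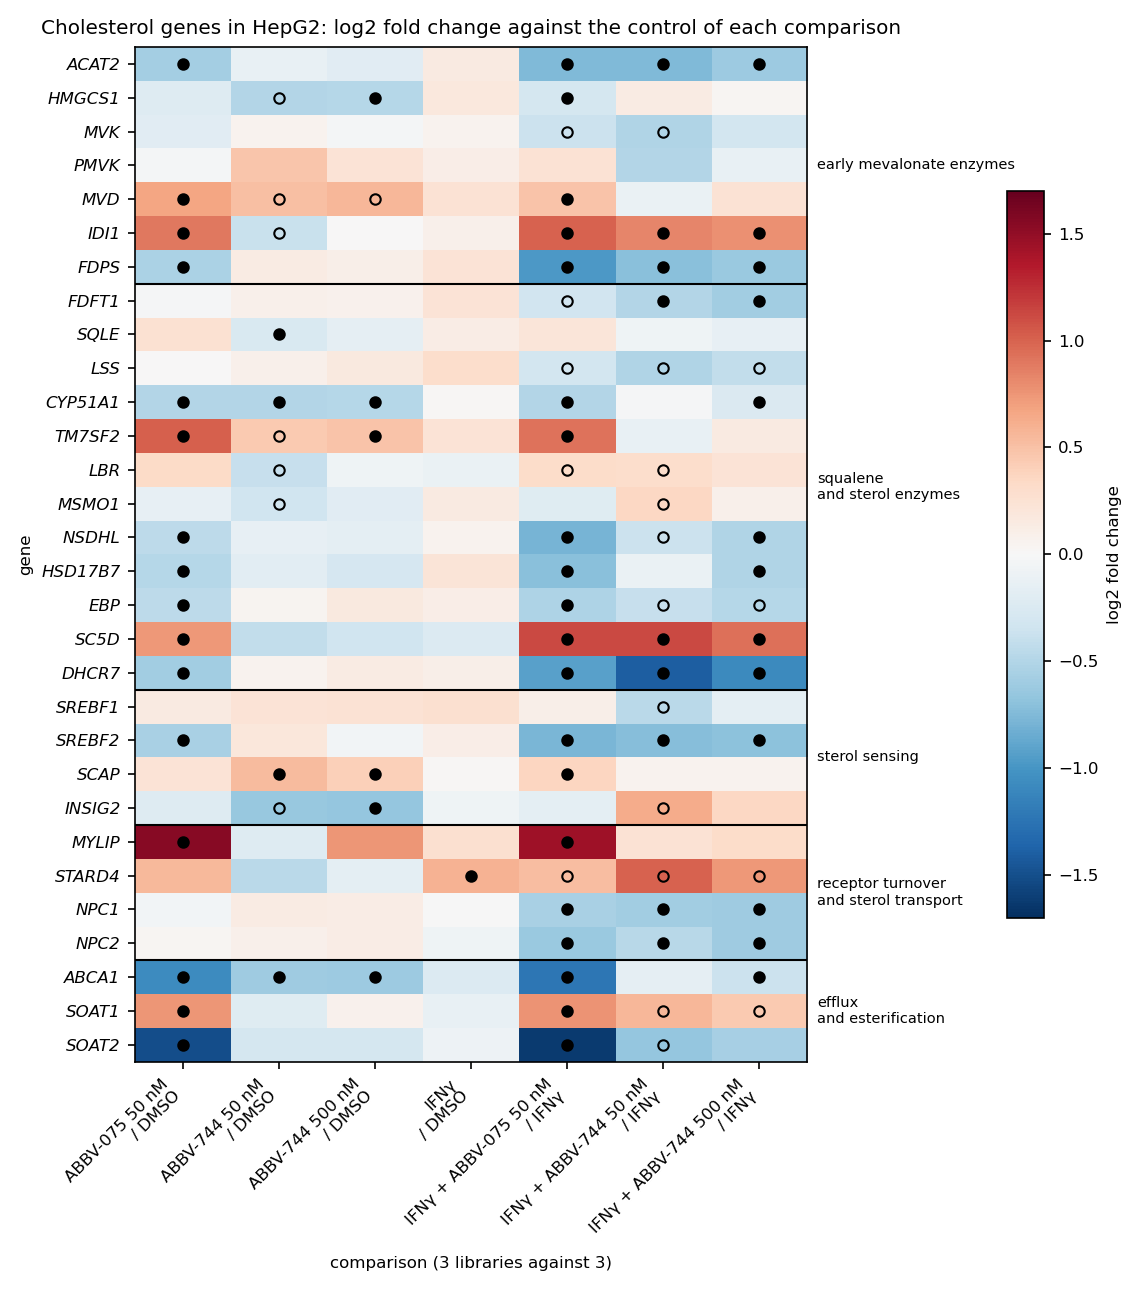
Log2 fold change of the 30 measured genes (rows, grouped by role) in the 7 comparisons of a treatment with its control (columns), red for higher and blue for lower. Filled circles mark an adjusted p of at most 0.05 with and without the GC correction, and open circles mark it without the correction only. All 16 circles of the ABBV-075 column recur in the column with IFNγ, whereas IFNγ alone holds 1.

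Among the enzymes of the early steps, IDI1, which interconverts the isoprenoid building blocks, was at 88.2, 103 and 105 CPM in DMSO and at 229, 181 and 150.1 CPM with ABBV-075. The groups did not overlap, although the spread under ABBV-075 was wide, and IDI1 had a log2 fold change of 0.89 ± 0.15 (SE) and an adjusted p of 0.000764. In the same order, the ABBV-075 libraries had 55.99%, 64.4% and 67.4% of reads aligned to several places. Reads outside annotated genes were 25.3%, 19.7% and 16.8% of them. The part of these differences in the ABBV-075 results was not tested. MVD, the decarboxylase that makes the first of these building blocks, was higher by 0.67 on the log2 scale (adjusted p = 0.0197), a call that held in 3 of the 6 fits that left out 1 library. ACAT2, the thiolase of the first step, stood at 123, 119.7 and 102 CPM in DMSO and at 74.3, 76.7 and 84.2 CPM with ABBV-075. Every treated library was below every control, and ACAT2 fell by 0.58 ± 0.13 (SE) on the log2 scale. The gene (chr6:159762045-159779112 in GRCh38, + strand) overlaps TCP1 on the opposite strand, and 21.6% of the reads at it fell on that strand and were not counted. FDPS, which joins the building blocks to farnesyl diphosphate, changed by -0.54 (adjusted p = 0.00826). HMGCS1, MVK and PMVK did not pass, with log2 fold changes of -0.22, -0.19 and -0.04.

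Of the 12 enzymes from squalene to cholesterol, 2 were higher and 5 lower. TM7SF2 was at 39.7, 36.9 and 42.9 CPM in DMSO and at 81.5, 78.4 and 85.7 CPM with ABBV-075, with a log2 fold change of 1.02 ± 0.13 (SE) and an adjusted p of 0.000131. Part of TM7SF2 overlaps VPS51 on the same strand, and CYP51A1 and EBP also overlap other annotated genes there. Reads matching more than 1 gene were not counted. The tight, separate groups of TM7SF2 contrast with those of SC5D, a desaturase near the end of the pathway. The latter was at 56.3, 66.8 and 68.4 CPM in DMSO and 138, 109 and 77.3 CPM with ABBV-075. SC5D had a log2 fold change of 0.74 ± 0.18 (SE) and an adjusted p of 0.007. LBR, the lamin B receptor that performs the same reduction as TM7SF2, did not pass (0.32, adjusted p = 0.0564). DHCR7, the reductase of the last step (chr11:71428193-71452868 in GRCh38, - strand), was at 98.4, 82.1 and 125 CPM in DMSO and at 55.7, 63.5 and 87.2 CPM with ABBV-075. These ranges overlapped, and the call on a log2 fold change of -0.59 ± 0.19 (SE) and an adjusted p of 0.026 held in 3 of the 6 fits with 1 library left out. CYP51A1 fell by 0.50 ± 0.12 (SE) from 273, 311 and 333 to 242, 209 and 208 CPM. The sterol dehydrogenase NSDHL (-0.45), the ketoreductase HSD17B7 (-0.48) and the isomerase EBP (-0.44) were called lower near the threshold, and the calls held in 1, 2 and 1 of the 6 such fits. FDFT1, SQLE (squalene epoxidase), LSS (lanosterol synthase) and MSMO1 did not pass, with values between -0.14 and 0.26.

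Among the sensors, SREBF2 was the one that passed. Its level was 145, 134 and 159 CPM in DMSO and 85.9, 101 and 115 CPM with ABBV-075, without overlap and with a log2 fold change of -0.56 ± 0.14 (SE) and an adjusted p of 0.0064. SREBF1, which encodes the factor of fatty acid synthesis, was at 0.15, SCAP at 0.23 and INSIG2 at -0.22, none of them past the threshold (adjusted p = 0.427, 0.189 and 0.399). MYLIP was a gene of low level, at 3.48, 4.22 and 5.72 CPM in DMSO and 14.7, 13.8 and 11.7 CPM with ABBV-075. The highest control was below the lowest treated library, which gave a log2 fold change of 1.55 ± 0.24 (SE) and an adjusted p of 0.000512. STARD4, a cytosolic carrier of cholesterol, was at 0.56 (adjusted p = 0.0732), and NPC1 and NPC2, which release cholesterol from lysosomes, were at -0.05 and 0.04.

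The 2 esterifying enzymes moved oppositely. SOAT1, the widely expressed one, was at 68.1, 65.9 and 61.8 CPM in DMSO and at 119, 116 and 101 CPM with ABBV-075, with a log2 fold change of 0.76 ± 0.12 (SE) and an adjusted p of 0.000555. SOAT2 (chr12:53103486-53124535 in GRCh38, + strand) was at 10.7, 11.8 and 11.2 CPM in DMSO and at 4.34, 3.45 and 4.21 CPM with ABBV-075, with a log2 fold change of -1.502 ± 0.24 (SE) and an adjusted p of 0.000502. Neither pair of groups overlapped. ABCA1 was at 149, 149 and 155 CPM in DMSO and at 76.2, 80.97 and 61.6 CPM with ABBV-075. Every treated library was far below the narrow range of the controls, with a log2 fold change of -1.07 ± 0.12 (SE) and an adjusted p of 6.56e-05. Liver X receptors turn on both ABCA1, which fell here, and MYLIP, which rose, and the part of these receptors was not tested.

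**Figure D2:**
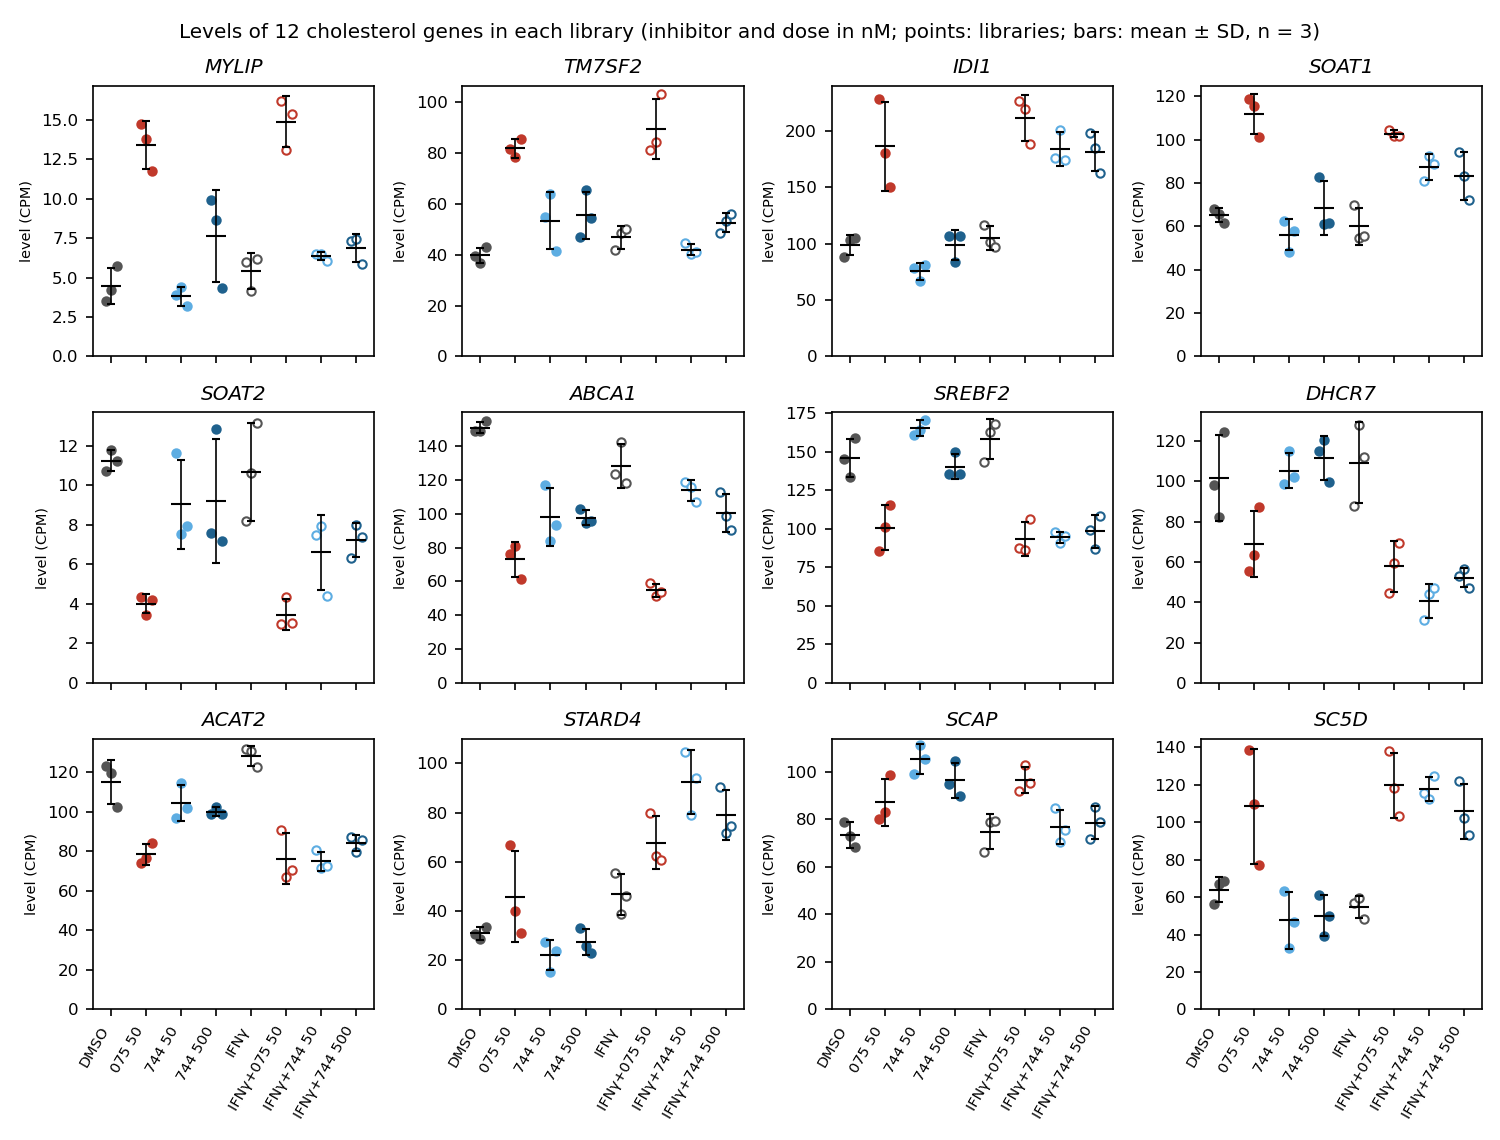
Level in CPM (linear axis from 0) of 12 genes in every library of the 8 groups, filled points without IFNγ and open points with it, with the mean and SD of the 3 libraries as bars. MYLIP and TM7SF2 are highest in both ABBV-075 groups and SOAT2 and ABCA1 lowest in them, while with ABBV-744 the levels of IDI1 and SC5D lie higher and those of DHCR7 lower in the groups with IFNγ than in those without it.

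With the GC correction all 16 of these calls were kept in the same direction, and 5 more members passed, which gave 8 higher and 13 lower, against 21.6% and 23.5% of all genes in the corrected fit. MYLIP was then at 1.62, TM7SF2 at 1.14, SOAT2 at -1.33 and ABCA1 at -1.04, close to the uncorrected values. The genes of low GC content moved more: SC5D, with 36.9% GC, went from 0.74 to 0.30, SOAT1 (40%) from 0.76 to 0.47 and HMGCS1 (39%) from -0.22 to -0.55. HMGCS1, MSMO1 (-0.54) and INSIG2 (-0.68) were among those that passed only with the correction, as lower, and SQLE (0.32) and SCAP (0.36) as higher. Across all genes with a GC value the Spearman correlation of log2 fold change with GC content was -0.34 in this comparison, a description over genes of the same 6 libraries. Leaving out the ABBV-075 library of replicate 2 reduced the 16 calls to 10.

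The bases just upstream of the start sites are shown for the most changed genes, since BET proteins bind acetylated promoters and SREBP-2 acts with the factor NF-Y. RefSeq windows from 250 bases before to 50 bases after a start (build GRCh38.p14) were found for 27 of the 32 members, and where a gene had several, the window nearest to its GENCODE start was used. The 120 bases before the start (that of RefSeq or GENCODE, whichever lies further upstream) follow, 5′ to 3′ on the gene's strand, with the NF-Y box (CCAAT, or ATTGG on the other strand) and the E-box (CACGTG) in capitals, for 5 genes that rose and for ABCA1, which fell. SOAT2 and ACAT2 had no entry, and the RefSeq start of DHCR7, 3825 bases from that of GENCODE, is not shown.
MYLIP, chr6:16128966-16129085 (+): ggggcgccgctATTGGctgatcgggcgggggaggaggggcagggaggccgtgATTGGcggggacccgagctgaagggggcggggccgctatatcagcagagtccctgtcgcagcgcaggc
TM7SF2, chr11:65111725-65111844 (+): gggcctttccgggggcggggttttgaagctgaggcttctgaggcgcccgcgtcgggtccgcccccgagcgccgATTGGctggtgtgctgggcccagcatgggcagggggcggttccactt
IDI1, chr10:1049120-1049239 (-): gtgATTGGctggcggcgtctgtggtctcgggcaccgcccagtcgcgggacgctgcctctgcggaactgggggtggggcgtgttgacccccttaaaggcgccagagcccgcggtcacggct
SOAT1, chr1:179293594-179293713 (+): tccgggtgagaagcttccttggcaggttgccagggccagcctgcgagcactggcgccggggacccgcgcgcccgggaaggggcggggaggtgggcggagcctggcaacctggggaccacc
SC5D, chr11:121292561-121292680 (+): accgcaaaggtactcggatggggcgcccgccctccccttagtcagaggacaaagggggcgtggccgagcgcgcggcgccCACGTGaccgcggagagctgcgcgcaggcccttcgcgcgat
ABCA1, chr9:104928156-104928275 (-): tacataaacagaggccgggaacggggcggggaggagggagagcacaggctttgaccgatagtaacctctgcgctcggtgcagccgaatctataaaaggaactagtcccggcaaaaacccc
MYLIP holds 2 NF-Y boxes in this stretch, TM7SF2 and IDI1 hold 1 each, and SOAT1, SC5D and ABCA1 hold none. The boxes of SOAT1 and SC5D start 85 and 56 bases before their RefSeq starts, which reaches past the start that GENCODE gives, so they are not among the bases shown. Over the whole windows, 18 of the 27 members (66.7%) had the box, against 34.6% of all 35116 windows. Here and below each member has 1 window, while the share over all windows counts every start of every gene, so the sets are unlike. Of the members with a window and a test, 6 of 6 higher, 5 of 8 lower and 6 of 12 without a call with ABBV-075 had it, a count made after the values were seen and given with no test. SREBF2 was the only member with a match to the core of the sterol regulatory element, TCACNCCAC on either strand, which 1.13% of all windows hold. Its 59 bases around the match, which starts 133 bases before the start site, are shown because SREBF2 was itself downregulated, with the element and the neighbouring NF-Y box in capitals.
SREBF2, chr22:41832957-41833015 (+): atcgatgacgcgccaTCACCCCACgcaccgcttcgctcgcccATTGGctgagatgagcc
The letters GGGCGG, a binding motif of Sp1, were in the windows of 24 of 27 members (88.9%) and in 45% of all windows. The E-box was in 5 of 27 (18.5%), those of SCAP, INSIG1, ABCA1, SC5D and LSS, and in 7.26% of all windows. These matches describe letters only.

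The ABBV-075 response was measured again in cells given IFNγ, with libraries that the DMSO comparison did not use. The same 6 members were higher and the same 10 lower, and no member was called in opposite directions. Over all genes tested in both, 86.7% of those called higher against DMSO were also called higher here and 91.2% of those called lower were also called lower, and these joint calls were 61.1% and 62.4% of the genes called here, so recurrence was frequent well beyond the members. A further 3 members were called higher and 6 lower, which made 9 and 16 of 30. Here 28.2% of all 11187 genes tested were higher and 28.4% lower, so the share of higher members was close to the background and the share of lower members above it. SOAT2, past the study's fold threshold as 6.17% of all genes were, was at 8.18, 10.6 and 13.1 CPM with IFNγ alone and at 2.98, 4.35 and 3.01 CPM with IFNγ and ABBV-075 (log2 fold change -1.62 ± 0.29 (SE), adjusted p = 1.08e-05). ABCA1 went from 124, 143 and 118 to 59.2, 51.4 and 53.6 CPM (log2 fold change -1.23 ± 0.11 (SE), adjusted p = 8.17e-12). Both genes reached their lowest levels of the 8 groups in these libraries.

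MYLIP, at 6.002, 4.13 and 6.15 CPM with IFNγ and 16.2, 13.1 and 15.4 CPM with the inhibitor added, had a log2 fold change of 1.44 ± 0.24 (SE) and an adjusted p of 4.1e-06. IDI1 was at 117, 101 and 97.1 CPM with IFNγ and 226, 219 and 189 CPM with ABBV-075, a rise of 1.002 ± 0.102 (SE) on the log2 scale. SC5D was at 57.02, 59.3 and 48.1 and 138, 118 and 103 CPM (1.12, and 0.48 after the GC correction). FDPS was at 247, 254 and 240.0 CPM with IFNγ and 114, 138 and 126 CPM with ABBV-075, with a log2 fold change of -0.98 ± 0.096 (SE) and an adjusted p of 4.33e-11. In each of these genes the 3 inhibitor libraries lay apart from the 3 IFNγ libraries. Members called here and not against DMSO were LBR, SCAP and STARD4 as higher and HMGCS1, MVK, FDFT1, LSS, NPC1 and NPC2 as lower. NPC1 was at -0.55 and NPC2 at -0.63, both kept with the GC correction. MVK, FDFT1 and LSS were not kept, and LBR and STARD4 turned to -0.26 and -0.26. In all, 20 of the 25 calls were kept in the same direction, and the corrected counts were 8 higher and 17 lower, against 26.7% and 29.1% of all genes.

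The interaction of ABBV-075 with IFNγ, the direct test of whether the effect differed, called 0 of the 30 members with edgeR, 0 with DESeq2 and 0 after the GC correction. At an unadjusted p under 0.05 there were 4. Over all 11530 genes 0.0173% were higher and 0.0173% lower, and 0.104% and 0.052% with the correction. Leaving out the ABBV-075 library of replicate 1 gave 83 genes higher and 117 lower, instead of 2 and 2, so the all-gene count depended on that library. The largest differences among members were in NPC2 (-0.69, 95% interval -1.16 to -0.21) and NPC1 (-0.52, -0.89 to -0.15), and the interval for MYLIP was -0.83 to 0.56, and none of these passed the adjustment over all genes.

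**Figure D3:**
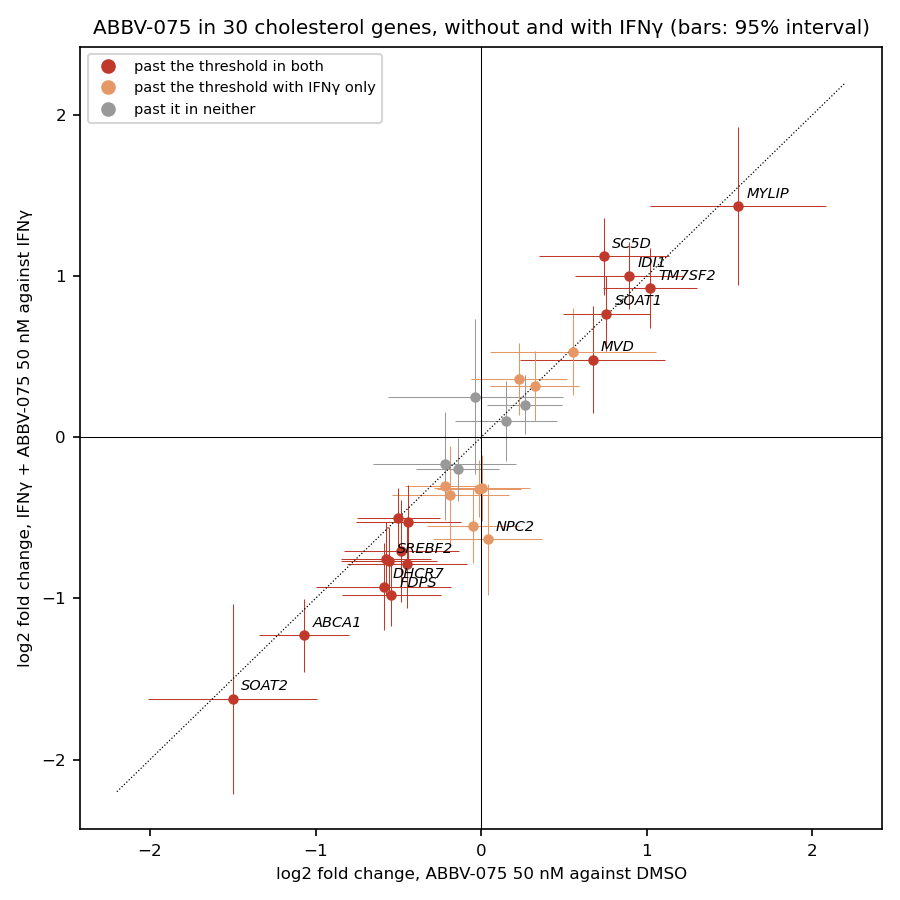
Log2 fold change of each of the 30 genes with ABBV-075 against DMSO (x axis) and with IFNγ and ABBV-075 against IFNγ (y axis), with 95% intervals and a dotted line of equal values. The 6 genes higher in both comparisons lie at the upper right and the 10 lower in both at the lower left, with MYLIP and SOAT2 at the ends.

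IFNγ alone moved 1 member. STARD4 was at 30.6, 28.6 and 33.6 CPM in DMSO and at 55.4, 38.7 and 46.2 CPM with IFNγ, every treated library being above every control, with a log2 fold change of 0.596 ± 0.13 (SE) and an adjusted p of 0.00328. This was 1 of 30 higher and 0 of 30 lower, against 2.76% higher and 0.695% lower over 11217 genes. At an unadjusted p under 0.05 there were 7 members, and DESeq2 called 1. STARD4 has the lowest GC content of the members (34.4%) and kept its call with the correction (0.72), which added HMGCS1 (0.27), FDFT1 (0.23) and MSMO1 (0.25) as higher, against 3.41% higher and 1.13% lower of all genes with the correction. In the fit of all 24 libraries the STARD4 call was not made. The median log2 fold change of the 30 members was 0.11, beside -0.002 over all genes.

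ABBV-744 at 50 nM, compared with DMSO, left 3 members higher and 8 lower, against 8.81% and 10.1% of 11116 genes. SCAP, the SREBP escort, was at 79.1, 73.04 and 68.2 CPM in DMSO and 99, 112 and 105 CPM with ABBV-744 (log2 fold change 0.54 ± 0.11 (SE), adjusted p = 0.00135). ABCA1 was at 117, 83.9 and 93.4 CPM, below the 3 DMSO libraries, with a log2 fold change of -0.61 ± 0.11 (SE) and an adjusted p of 0.000481. INSIG2, which holds SREBP in the endoplasmic reticulum, went from 33.8, 45.1 and 41.02 to 31.6, 20.7 and 23.8 CPM (log2 fold change -0.64 ± 0.16 (SE), adjusted p = 0.00684). HMGCS1, the synthase before mevalonate, went from 99.7, 105 and 100.2 to 74.5, 70.7 and 67.97 CPM (log2 fold change -0.502 ± 0.105 (SE), adjusted p = 0.00194). These 4 genes changed without overlap of the groups, whereas TM7SF2 (0.44) and MVD (0.51) passed with overlapping groups. TM7SF2 was at 54.9, 63.8 and 41.6 CPM and MVD at 27.4, 21.4 and 24.5 CPM, against 21.98, 14.7 and 15.7 CPM for MVD in DMSO. CYP51A1 (-0.498), IDI1 (-0.38), SQLE (-0.26), LBR (-0.398) and MSMO1 (-0.34) were the other members called lower.

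The GC trend was steeper here than with ABBV-075, with a Spearman correlation of 0.596 over all genes. With the correction 4 of the 11 calls remained: ABCA1 (-0.55), CYP51A1 (-0.26) and SQLE (-0.24) as lower and SCAP (0.296) as higher. The corrected fit called 5.63% of all genes higher and 5.21% lower, beside 1 and 3 of the 30 members. Reads that aligned to several places, 66.2% to 69.4% here against 56% to 61% in DMSO, and reads outside annotated genes, 14.8% to 17.3% against 20.5% to 24%, also separated these groups, and their part in the calls was not tested. INSIG2, HMGCS1 and MVD then stood at -0.28, -0.21 and 0.27, and MSMO1 at 0.008. Without the DMSO library of replicate 2 there were 4 calls, and without that of replicate 3 there were 6.

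At 500 nM, ABBV-744 gave 3 members higher and 4 lower, against 7.48% and 7.8% of 11124 genes. ABCA1 was at 103, 94.5 and 95.8 CPM (log2 fold change -0.62 ± 0.096 (SE), adjusted p = 3.24e-05), INSIG2 at 26.8, 22.7 and 26.2 CPM (-0.66), HMGCS1 at 79.1, 70.8 and 67.01 CPM (-0.48) and CYP51A1 at 228, 197 and 229 CPM (-0.48). Each lay below its 3 DMSO libraries. SCAP at 95.1, 104 and 90.01 CPM (0.40), TM7SF2 at 46.8, 65.4 and 54.4 CPM (0.48) and MVD at 24.1, 23.4 and 28.8 CPM (0.56) lay above them. All but MVD kept the call with the GC correction, at -0.596 for ABCA1, -0.47 for INSIG2, -0.33 for HMGCS1, -0.35 for CYP51A1, 0.26 for SCAP and 0.34 for TM7SF2, which made 2 higher and 4 lower against 8.41% and 9.53% of all genes. Reads aligned to several places were 64% to 68.1% at this dose, again above DMSO. The 2 doses share the DMSO libraries with each other and with the ABBV-075 comparison, so their calls are not independent. Side by side, ABCA1 was at -1.07 with ABBV-075, -0.61 with ABBV-744 at 50 nM and -0.62 at 500 nM. Without the DMSO library of replicate 2, 4 of the 7 calls were made.

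Directly compared, the 2 doses of ABBV-744 gave 0 of 30 members called, with 4 at an unadjusted p under 0.05 and 0 by DESeq2. Of all 10967 genes 0% were higher and 0.0274% lower. The largest difference was that of MYLIP, at 3.88, 4.399 and 3.18 CPM at 50 nM and 9.89, 8.65 and 4.31 CPM at 500 nM. The log2 difference was 0.98 with a 95% interval of 0.26 to 1.7 and an adjusted p of 0.768, with 1 of the 3 libraries of the higher dose inside the range of the lower. With IFNγ the doses again gave 0 calls, 7 at an unadjusted p under 0.05 and 0 by DESeq2, against 1.41% higher and 0.29% lower of 11022 genes.

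At the matched dose of 50 nM the 2 inhibitors differed in 14 members, 8 higher and 6 lower with ABBV-075, against 21.4% and 19.4% of 10992 genes. ABBV-075 acts on both bromodomains and ABBV-744 mainly on the second. MYLIP was 3.48-fold higher with ABBV-075, where the 3 libraries at 11.7 to 14.7 CPM stood far above the 3.18 to 4.40 CPM of ABBV-744 (log2 fold change 1.797 ± 0.25 (SE), adjusted p = 0.000971). IDI1, at 78.4, 66.9 and 81.3 CPM with ABBV-744, differed by 1.29 ± 0.17 (SE), and SC5D, at 63.2, 32.99 and 46.7 CPM, by 1.18 ± 0.25 (SE). In the other direction, SOAT2 at 11.6, 7.54 and 7.94 CPM with ABBV-744 differed by -1.18 ± 0.28 (SE). SREBF2 was at 161, 164 and 171 CPM with ABBV-744, above all 3 ABBV-075 libraries, and differed by -0.73 ± 0.13 (SE). FDPS, at 217, 244 and 229 CPM, differed by -0.66. The other differences were SOAT1 (0.98), STARD4 (1.04), LBR (0.74), TM7SF2 (0.61) and SQLE (0.54) as higher with ABBV-075 and DHCR7 (-0.63), EBP (-0.46) and ACAT2 (-0.42) as lower. Of the 14 calls 10 were kept with the GC correction, which called 8 members higher and 9 lower against 16.4% and 17.8% of all genes. STARD4, LBR, EBP and DHCR7 were not, at 0.098, 0.01, -0.15 and -0.27. ABCA1 was -0.44 between them (95% interval -0.79 to -0.08), which did not pass in the uncorrected fit and passed with the correction (-0.47). MYLIP was the single member past the fold threshold of 1.5. The plain share of called members was near the background in both directions.

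In cells given IFNγ the same pair of inhibitors differed in 21 members, 12 higher and 9 lower with ABBV-075, against 16.7% and 17% of 11126 genes. These shares, 12 and 9 of 30, were above the background in both directions. MYLIP, at 6.51, 6.499 and 6.08 CPM with IFNγ and ABBV-744, differed by 1.27 ± 0.22 (SE). TM7SF2, at 44.6, 40.4 and 41.2 CPM with IFNγ and ABBV-744 and 81.3, 84.3 and 103 CPM with IFNγ and ABBV-075, differed by 1.13 ± 0.11 (SE). PMVK, the kinase after mevalonate kinase, differed by 0.82 with overlapping groups, at 4.82, 5.09 and 10.2 and 9.45, 11.97 and 12.96 CPM. ABCA1 was at 119, 116 and 107 CPM with IFNγ and ABBV-744, above all 3 libraries with IFNγ and ABBV-075 (log2 fold change -1.01 ± 0.102 (SE), adjusted p = 9.62e-11). SOAT2, at 7.47, 7.91 and 4.42 CPM, differed by -0.89, and INSIG2, at 54.2, 67.8 and 53.9 CPM against 39.8, 34.8 and 27.4 CPM, by -0.73. The other 9 members higher with ABBV-075 were MVD, SREBF1, DHCR7, SCAP, SQLE, SOAT1, LSS, FDFT1 and IDI1, from 0.67 down to 0.25, and the other 6 lower ones were HSD17B7, MSMO1, CYP51A1, STARD4, HMGCS1 and NSDHL, from -0.52 to -0.35. With the GC correction 19 of the 21 calls were kept, LSS (0.09) and SCAP (0.12) being the exceptions, and 12 members were higher and 10 lower against 16.4% and 18.3% of all genes. Without the IFNγ and ABBV-744 library of replicate 1 the count was 11.

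ABBV-744 was also added to IFNγ. At 50 nM it left 7 members higher and 13 lower than IFNγ alone, against 27.4% and 24.3% of 11150 genes. DHCR7 was at 87.9, 128 and 112 CPM with IFNγ and 31.1, 44.4 and 46.97 CPM with ABBV-744 added, with a log2 fold change of -1.41 ± 0.13 (SE) and an adjusted p of 1.52e-10. ACAT2 went from 132, 130.5 and 123 to 80.5, 71.8 and 72.4 CPM (log2 fold change -0.75 ± 0.095 (SE), adjusted p = 4.88e-08) and SREBF2 from 144, 163 and 168 to 97.6, 90.7 and 95.04 CPM (log2 fold change -0.72 ± 0.09 (SE), adjusted p = 4.53e-08). All 3 genes were clear of overlap, and none of them had passed with ABBV-744 alone. SC5D (1.12, at 115, 112 and 125 CPM), STARD4 (1.004, at 105, 78.8 and 93.9 CPM) and IDI1 (0.82, at 176, 201 and 174 CPM) were the most increased. The remaining calls were FDPS, SOAT2, NPC1, MVK, LSS, FDFT1, NPC2, SREBF1, EBP and NSDHL as lower, from -0.71 to -0.36, and INSIG2, SOAT1, MSMO1 and LBR as higher, from 0.63 to 0.29.

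This comparison had the steepest GC trend of those with a control, a Spearman correlation of -0.68 over all genes, and the correction left 3 members higher and 12 lower, with 9 of the 20 calls kept. Over all genes the corrected shares were 16.4% higher and 18.2% lower. Kept as lower were DHCR7 (-1.07), ACAT2 (-1.09), NPC2 (-0.603), FDFT1 (-0.44), NPC1 (-0.43), SREBF2 (-0.38) and FDPS (-0.38), and kept as higher were IDI1 (0.37) and SC5D (0.28). STARD4, whose 34.4% GC is the lowest of the members, went from 1.004 to -0.03. MSMO1 and LBR turned from 0.36 and 0.29 to -0.45 and -0.48. These genes therefore have no direction that holds under both scalings.

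**Figure D4:**
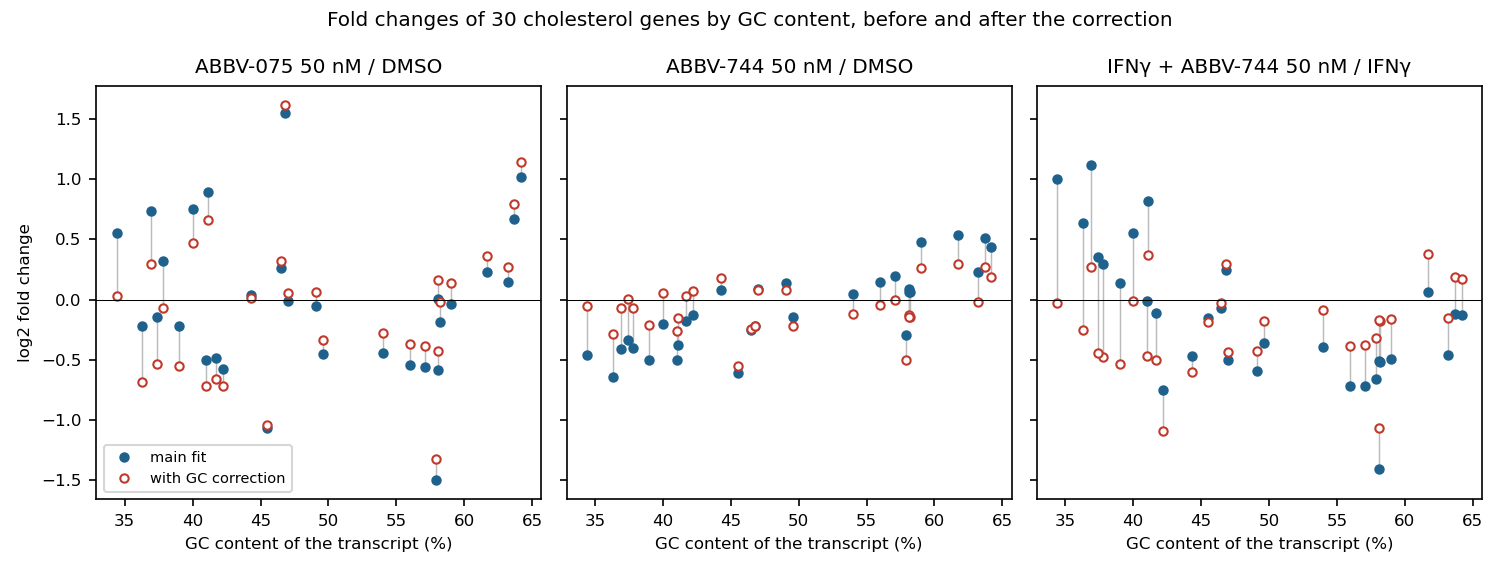
Log2 fold change of the 30 genes (y axis) against the GC content of the longest transcript in percent (x axis) in 3 comparisons, filled points as fitted and open points with the GC correction, joined for each gene. With ABBV-744 and IFNγ the genes of low GC content move down, as STARD4 from 1.004 to -0.03, while MYLIP, SOAT2 and ABCA1 with ABBV-075 hardly move.

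At 500 nM with IFNγ, 4 members were higher and 13 lower, against 22.9% and 22.8% of 11091 genes. DHCR7 was at 53.3, 56.4 and 47.1 CPM (log2 fold change -1.08 ± 0.12 (SE), adjusted p = 2.22e-08), SREBF2 at 99.6, 87.2 and 109 CPM (-0.697) and FDPS at 169, 154 and 159 CPM (-0.64), all below the IFNγ libraries. SC5D was at 122, 102 and 93.2 CPM (0.93), IDI1 at 198, 184 and 163 CPM (0.77) and STARD4 at 90.6, 71.8 and 74.7 CPM (0.73), all above them. SOAT1 was the other member called higher, and ACAT2, NPC1, NPC2, FDFT1, HSD17B7, NSDHL, EBP, LSS, ABCA1 and CYP51A1 were the others called lower, from -0.62 to -0.24. With the correction 5 members were higher and 15 lower and 13 of the 17 calls were kept, EBP, LSS and SOAT1 being lost and STARD4 turning to -0.11. The corrected shares over all genes were 17.4% higher and 19.5% lower.

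The 3 comparisons of an inhibitor with IFNγ share the 3 IFNγ libraries, so their calls are not independent, and their values are only set side by side here. For ABBV-075, ABBV-744 at 50 nM and ABBV-744 at 500 nM in this order, the log2 fold changes of SREBF2 were -0.77, -0.72 and -0.697. Those of DHCR7 were -0.93, -1.41 and -1.08, and those of SC5D were 1.12, 1.12 and 0.93, or 0.48, 0.28 and 0.25 with the correction. MYLIP was at 1.44, 0.24 and 0.31, with wide 95% intervals of -0.32 to 0.81 and -0.27 to 0.898 for the doses of ABBV-744.

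Whether the effect of ABBV-744 differed with IFNγ was tested as an interaction, a comparison added after these values were seen. At 50 nM it called 25 of 30 members, 10 with a more positive and 15 with a more negative effect in the presence of IFNγ, against 25% and 26.5% of 11451 genes. The median log2 value over all genes in this fit was -0.144. Scaled by library size only, it called 3386 genes as more positive and 1740 as more negative, instead of 2866 and 3039. The GC trend was the steepest of all, -0.77, and with the correction 2 and 10 members were called, 9 of them among the 25 in the same direction, while the share of all genes fell to 9.41% and 11.1%. At 500 nM the counts were 5 and 9, against 18.5% and 15% of 11428 genes, and 2 and 9 with the correction, 8 of them shared, against 7.67% and 9.21% of all genes. Reads that aligned to several places also differed, at 57.5% to 59.6% with IFNγ and ABBV-744 at 50 nM against 66.2% to 69.4% with ABBV-744 at 50 nM alone, and their part in the interaction was not tested. DHCR7 differed most at both doses on the negative side (log2 fold change -1.498 ± 0.205 (SE), adjusted p = 8.52e-07 at 50 nM), and was at 98.7, 115 and 102 CPM with ABBV-744 alone. SC5D differed most on the positive side (1.499 at 50 nM and 1.296 at 500 nM). With the GC correction DHCR7 stood at -0.92 and -0.81, both called, and SC5D at 0.35 and 0.42, of which only the latter was called.

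Genes of the same pathways outside the 32 were counted for ABBV-075 against DMSO, where 19.8% of all genes were higher and 19.6% lower, or 21.6% and 23.5% with the GC correction. Of 16 tested SREBP-1 and fatty acid synthesis genes 2 were higher and 6 lower, led by the acyl-CoA synthetase ACSL3 (0.68) and the glycerol phosphate acyltransferase GPAM (-3.09), and with the correction 2 and 7. Of 7 genes of the liver X receptors and their targets 0 were higher and 1 lower, the transporter ABCG8 (-1.198), and the counts were the same with the correction. Of 13 genes of SREBP processing and sterol-dependent degradation 2 were higher and 1 lower, and PAQR3, a Golgi membrane protein, led those that were higher (0.76). With the correction this list had 1 higher and 2 lower. Of 9 genes of sterol transport and hydrolysis 0 passed, and with the GC correction 1 was higher and 2 lower. Of 10 genes of the isoprenoid branches 1 was higher, COQ2 (0.54) of ubiquinone synthesis, and 1 lower, PDSS2 (-0.68) of the same branch, and with the correction 2 and 2. Of 5 side enzymes 1 was higher and 2 lower, the latter led by CYP8B1 (-4.94) of bile acid synthesis, with the same counts after the correction. GPAM and CYP8B1 changed more than any of the 30 members, CYP8B1 with the wider SE (0.67, beside 0.205 for GPAM).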

How the data were processed

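Total RNA of HepG2 cells was sequenced in 24 libraries, 3 in each of 8 groups named by the labels. Before deposit, the authors removed ribosomal RNA, prepared strand-specific libraries, trimmed with Trimmomatic 0.33, aligned to GRCh38 with STAR 2.7.1 and deposited raw counts per gene symbol, without normalization. The annotation used for counting is not given in the sources used here, and reads aligning to several places were left out. The counts on the gene's strand were used. Genes were filtered (filterByExpr in edgeR 4.0.16, under R 4.3.3), normalized (TMM) and tested (quasi-likelihood test, Benjamini-Hochberg adjustment over all genes, without covariates) on the groups compared only. A member was called at an adjusted p of at most 0.05, and the study's fold threshold of 1.5 (log2) was counted beside it. The SE is the log2 fold change divided by the square root of F. Levels rest on the 2978982 to 4304103 counts per library.

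Alternatives were DESeq2 1.42.0, RLE or library size only, no filter, a minimum of 10 counts per library, a fit of all 24 libraries, both strands, a replicate block, each library left out and a GC correction. For the correction, deviations of log2 CPM were smoothed against GC content (longest GENCODE transcript, lowess with a span of 0.3) per library and the curve entered the fit as an offset. The fits were tested on simulated data. Every member is named, and values by library are given for the called members of largest change (up to 5 per direction for ABBV-075 and IFNγ against DMSO, up to 3 elsewhere, with at least 10 mean counts). In the pathway lists, the called gene of largest change per direction is named, apart from genes that are not reported here. The members and lists were chosen with earlier results of these data known. The interactions of ABBV-744 with IFNγ were added after the values were seen.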

Additional observations from a re-analysis of the deposited data

Results flagged for a closer look

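The effect of ABBV-744 on 25 members at 50 nM and on 14 members at 500 nM differed between cells without and with IFNγ, by the interaction term (adjusted p at most 0.05, edgeR). Over all genes tested 25% were called with a more positive and 26.5% with a more negative effect at 50 nM, and 18.5% and 15% at 500 nM. Median values over all genes were -0.144 at 50 nM and -0.088 at 500 nM. These comparisons were chosen after the values were seen. Each value is the log2 effect with IFNγ minus that without it.

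At 50 nM the difference was positive for SC5D (1.499), STARD4 (1.44), INSIG2 (1.25), IDI1 (1.17), SOAT1 (0.73), MSMO1 (0.67), LBR (0.66), HMGCS1 (0.61), CYP51A1 (0.45) and ABCA1 (0.42). It was negative for DHCR7 (-1.498), PMVK (-1.003), SREBF2 (-0.94), FDPS (-0.89), NPC1 (-0.77), SREBF1 (-0.72), MVD (-0.66), ACAT2 (-0.66), LSS (-0.62), FDFT1 (-0.61), MVK (-0.61), TM7SF2 (-0.599), NPC2 (-0.58), SCAP (-0.502) and EBP (-0.47). With the GC correction 9 of these 25 calls were made in the same direction, those of ACAT2, IDI1, FDPS, FDFT1, DHCR7, SREBF2, NPC1, NPC2 and ABCA1, and 9.41% and 11.1% of all genes were called.

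At 500 nM it was positive for SC5D (1.296), INSIG2 (1.04), STARD4 (0.93), IDI1 (0.79) and HMGCS1 (0.54). It was negative for DHCR7 (-1.195), FDPS (-0.72), NPC1 (-0.71), NPC2 (-0.704), EBP (-0.64), FDFT1 (-0.64), SREBF2 (-0.63), LSS (-0.57) and ACAT2 (-0.404). With the GC correction 8 of these 14 calls were made in the same direction, those of ACAT2, IDI1, FDPS, FDFT1, SC5D, DHCR7, NPC1 and NPC2, and 7.67% and 9.21% of all genes were called. The fold changes of all genes followed GC content in both interactions, with Spearman correlations of -0.77 and -0.66, and the part of GC content in these differences was not tested beyond the correction.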

How the results depend on the processing

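Of 171 called values of single members, 150 kept direction and call with DESeq2, 168 with RLE, 153 with library size only, 169 without the filter, 170 with at least 10 counts in every library, 161 in the fit of all 24 libraries, 167 with both strands and 115 with the GC correction, which reversed 18. Those 18 became, with the correction, MSMO1 0.008 with ABBV-744 at 50 nM, LBR -0.26 and STARD4 -0.26 with IFNγ and ABBV-075, LBR -0.48, MSMO1 -0.45, INSIG2 -0.25, STARD4 -0.025 and SOAT1 -0.014 with IFNγ and ABBV-744 at 50 nM, and STARD4 -0.11 at 500 nM. In the interaction at 50 nM they were HMGCS1 -0.33, CYP51A1 -0.20, LBR -0.41, MSMO1 -0.45, EBP 0.025, SCAP 0.084 and SOAT1 -0.069, and at 500 nM HMGCS1 -0.16 and STARD4 -0.14.

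Counts of called members moved by over 1.5 times as follows, and the cause was not tested. With the GC correction ABBV-744 at 50 nM had 4, IFNγ 4 and the interaction at 50 nM 12. For IFNγ alone, library size only and no filter each gave 2 and the fit of all 24 libraries 0. With the fold of 1.5 as well, by construction fewer, ABBV-075 had 2, both with IFNγ and between the inhibitors 1, and the comparisons of ABBV-744 or IFNγ with their control, of the inhibitors with IFNγ and of the ABBV-744 interactions 0. Leaving out 1 library gave 10 to 19 for ABBV-075, 4 to 12 and 4 to 8 for ABBV-744 at 50 and 500 nM, 1 to 2 for IFNγ, 11 to 20 for the inhibitors with IFNγ, and 0 to 2 for the doses with IFNγ. The libraries behind these shifts were ABBV-075 replicate 2, DMSO replicates 2 and 3, DMSO replicate 1 and IFNγ replicate 1 (2 calls each for IFNγ), IFNγ and ABBV-744 at 50 nM replicate 1, and IFNγ and ABBV-744 at 500 nM replicate 1. Over all fits without 1 library, 1132 of 1260 values kept direction and call and 0 reversed.

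Replicate numbers were not taken as pairs, since no comparison had all 3 correlations of same-numbered deviations over 0.1. They ran from -0.20 to 0.39 and were 0.28, 0.38 and 0.047 between the ABBV-744 doses without IFNγ, where 5 of 6 libraries correlated best with their own number. The same 5 of 6 did so for IFNγ and ABBV-075 against IFNγ (0.198, 0.022 and 0.181). With the number as a block, the ABBV-744 doses without IFNγ gave 2 member calls instead of 0, IDI1 (0.385) and LBR (0.33) as higher at 500 nM. Over all genes the block gave 180 higher and 140 lower there, instead of 0 and 3. For IFNγ and ABBV-075 against IFNγ it gave 3454 higher and 3454 lower, instead of 3155 and 3176. Of the 171 called values of single members, 167 kept their call with the block. About 3 counts make 1 CPM, which limits PMVK, MYLIP and SOAT2 most. INSIG1 and ABCG1, with at most 1 count per library, were not measured, and the reason was not tested.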
